A study of Mus musculus with 12 samples.

Results

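The GIMAP genes (GTPases of immunity-associated proteins) were taken as the 8 rows of the count table whose Ensembl identifiers carry the symbols Gimap1, Gimap3, Gimap4, Gimap5, Gimap6, Gimap7, Gimap8 and Gimap9, of 51826 genes in all. All 8 passed the filter on low counts that left 15038 genes for testing. GIMAP proteins are small GTP-binding proteins of lymphocytes, most of them held on internal membranes, and are known above all for their part in the survival of T and B cells. Loss of Gimap5, which sits on lysosomes, or of Gimap1 depletes peripheral lymphocytes in mice. Gimap3 is the closest relative of Gimap5. It was first described under the name Ian4 as a gene induced by BCR-ABL.

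RNA was sequenced from 12 pre-B cell lines of C57BL/6 mice, with 3 lines of each condition from each of 2 mice. Marrow was cultured for 7 days with interleukin 7 (IL7), the growth factor of B cell precursors, and transduced with the retroviral vector pMIG alone (empty vector, EV) or with pMIG-BCR-ABL, which carries BCR-ABL1, the fusion kinase of Philadelphia chromosome-positive leukaemia. After 48 h with IL7, the BCR-ABL1 lines went without IL7 for 1 week, while IL7 was left in the EV cultures and their GFP-positive cells, GFP being the marker of the vector, were sorted. BCR-ABL1, IL7 withdrawal and the sort, which is described only for EV cultures, therefore cannot be told apart in any comparison of the conditions. Since each group of lines comes from the marrow of only 2 mice, p-values measure the spread between these lines. Lines are named by a digit and a letter, and the digit was read as the mouse, which the sample titles do not state.

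Total counts lay between 34791011 and 64547911 in EV lines and between 45230023 and 66011225 in BCR-ABL1 lines. The EV lines of mouse 2 varied most, with a common biological coefficient of variation of 0.386 compared with 0.0844 to 0.103 in the other groups of 3 lines. Of all libraries, EV line 2C moved the counts of called genes most when it was left out, from 899 to 1348 genes higher. In EV lines 2A and 2B the most abundant gene held 7.84% and 6.36% of the counts, against 1.57% to 3.46% in the other lines. Whether this bears on the GIMAP levels of these lines was not tested. The B lineage label was met by the RNA. Pax5, Ebf1 and Cd79a measured 310 to 569, 317 to 544 and 294 to 611 CPM over all lines (read counts relative to library size, scaled by TMM). The 12 B lineage markers summed to 4980 to 8190 CPM per line, of which Cd24a alone held 1830 to 3650 CPM. Of the 16 T and NK cell markers, 10 stayed below 1 CPM in every line, and the defining T cell genes Cd3e, Cd4, Cd8a and Thy1 did not exceed 0.123, 0.215, 0.184 and 0.092 CPM. The whole T and NK list, however, summed to 117 to 138 CPM in EV lines but reached 262 to 339 CPM with BCR-ABL1 in mouse 1 and 163 to 168 CPM with BCR-ABL1 in mouse 2, where the sum was higher in mouse 1 through Cd2, Lck, Bcl11b and Lat and in mouse 2 through Cd2 alone of these 4 (71.8 to 87.0 CPM, against 2.40 to 35.5 CPM in its EV lines). Lat was lower with BCR-ABL1 in mouse 2 (2.37 to 2.57 CPM, against 6.61 to 23.2 CPM). The part of this difference in the results below was not tested. In bulk RNA, fewer cells that use a gene and less RNA per cell cannot be told apart.

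The GIMAP genes form a single cluster of 123.6 kb on mouse chromosome 6 (GRCm38, chr6:48647234-48770851). In the order of the chromosome it holds Gimap8, Gimap9, Gimap4, Gimap6, Gimap7, Gimap1, Gimap5 and Gimap3. Gimap6 and Gimap3 lie on the minus strand and the other members on the plus strand. Gimap4 spans chr6:48684549-48692060 and Gimap3, at the far end, chr6:48764464-48770851. The RefSeq promoter windows (GRCm38.p6, 250 bases before to 50 bases after the annotated start) were found for all 8 members, with 2 start sites for Gimap8. Below are the windows of Gimap4 (chr6:48684328-48684627, plus strand) and Gimap3 (chr6:48770802-48771101, minus strand), the members that rose in the comparison of all lines. Also shown is that of Gimap6 (chr6:48708195-48708494, minus strand), an abundant member whose level overlapped between the conditions in that comparison. Capitals mark matches, on either strand, to 4 short motifs: TTCNNNGAA (STAT), GGAAG (ETS), TGTGGT (RUNX) and TGTTTAC (FOXO).
Gimap4: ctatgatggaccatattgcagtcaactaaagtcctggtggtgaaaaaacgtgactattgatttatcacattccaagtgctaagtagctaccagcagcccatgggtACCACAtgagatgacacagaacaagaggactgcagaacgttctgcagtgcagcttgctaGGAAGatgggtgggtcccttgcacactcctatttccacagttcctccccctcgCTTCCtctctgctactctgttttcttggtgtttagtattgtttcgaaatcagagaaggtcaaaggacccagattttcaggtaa
Gimap3: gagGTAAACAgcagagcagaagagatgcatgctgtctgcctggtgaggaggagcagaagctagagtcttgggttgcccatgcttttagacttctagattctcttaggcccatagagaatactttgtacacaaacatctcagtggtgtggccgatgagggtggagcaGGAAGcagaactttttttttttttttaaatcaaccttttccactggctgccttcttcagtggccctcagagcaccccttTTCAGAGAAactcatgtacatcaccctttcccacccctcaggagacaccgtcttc
Gimap6: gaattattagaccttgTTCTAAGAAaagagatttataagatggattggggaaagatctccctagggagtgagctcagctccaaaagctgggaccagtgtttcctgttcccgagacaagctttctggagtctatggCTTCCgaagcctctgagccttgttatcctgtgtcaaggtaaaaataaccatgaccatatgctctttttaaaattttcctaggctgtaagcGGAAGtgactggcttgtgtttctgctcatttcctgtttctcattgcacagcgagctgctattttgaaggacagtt

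Counted from the first transcribed base as 0, the Gimap3 window held the STAT letters TTCAGAGAA at -5, and that of Gimap6 held TTCTAAGAA at -234. The same letters were present in the windows of Gimap7 (TTCTTTGAA at 40) and of the second start site of Gimap8 (TTCCTAGAA at -47, which overlaps an ETS match on the other strand). In all, 4 of 8 members had a STAT match, against 8.30% of 32851 promoter windows of the same length. Members were counted by any of their windows and the background by single windows, and Gimap8, with an additional window, matched STAT only in that one. The ETS letters were found in 8 of 8 members, where 71.4% of all windows hold them. RUNX letters were found in Gimap1, Gimap4 and Gimap7 (16.8% of all windows) and FOXO letters in Gimap3 alone among the members (3.65%). The further motifs CANNTG (E box) and TGGGAA (RBPJ) had matches in 6 members and 1 member, compared with 72.3% and 25.6% of all windows. These are matches of letters only. Of the members called higher over all lines, Gimap3 had a STAT match and Gimap4 had none. The others with a match, Gimap6, Gimap7 and Gimap8, were not called over all lines. In mouse 1 alone all 4 members with a match were called higher, as were Gimap1, Gimap4 and Gimap5 without one (15.7% of tested genes were). Whether these matches bear on the levels was not tested.

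Of the 8 members, Gimap4 and Gimap3 were higher in BCR-ABL1 lines than in EV lines over all 12 lines, and 0 were lower, also at an unadjusted p under 0.05 and by DESeq2. The test was edgeR's quasi-likelihood glmTreat against a 1.5-fold change at a false discovery rate (FDR) of 0.05 over all tested genes, and called higher were 5.98%, and lower 6.46%, of all tested genes. The median log2 fold change of the members was 0.86, and that of all tested genes was -0.02. All BCR-ABL1 lines lay above all EV lines in Gimap4, Gimap3 and Gimap1, as they did in 12.1% of tested genes. The members' values in the 12 lines are shown in the plot of CPM by line, and errors of log2 fold changes are SE between lines.

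**Figure D1:**
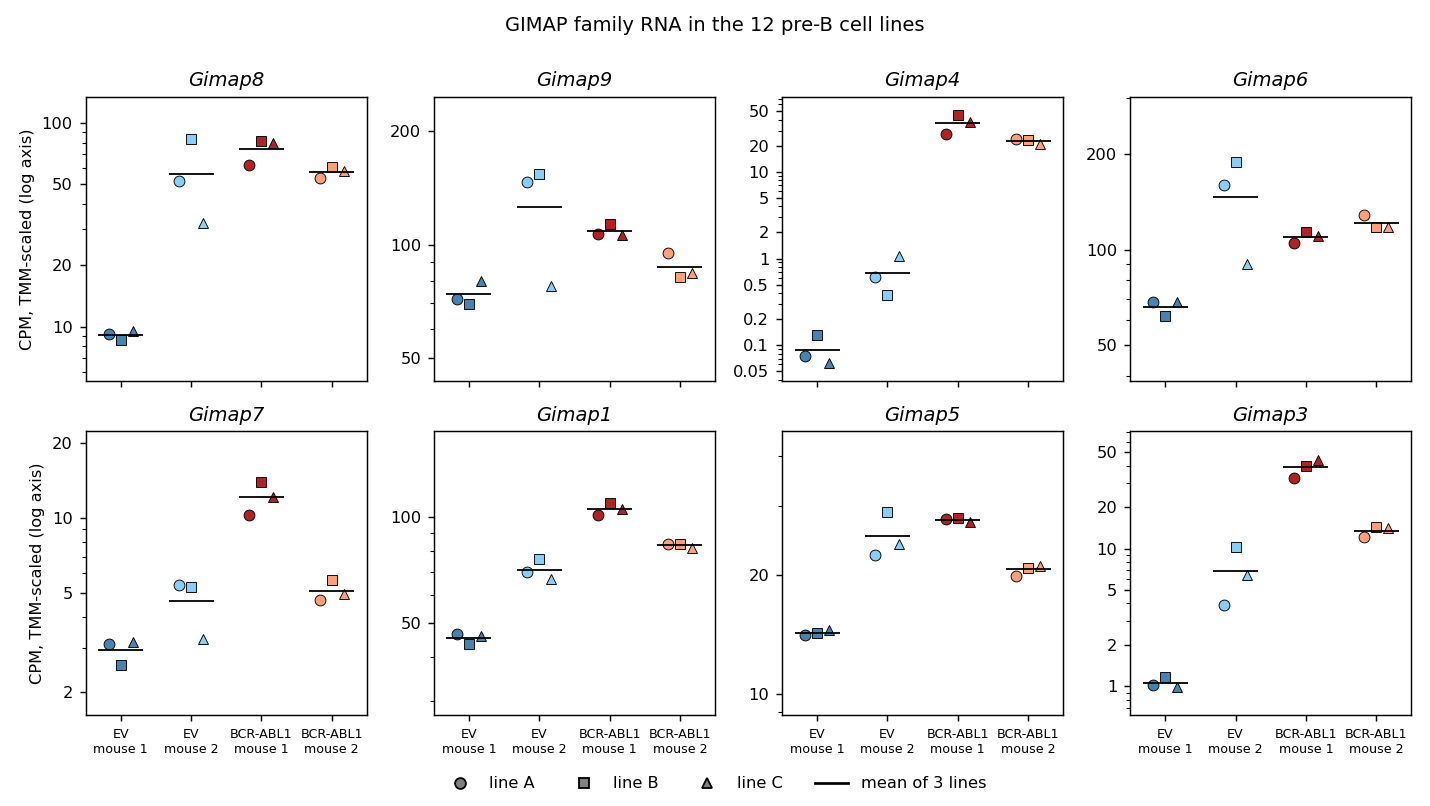
CPM (TMM-scaled, log axis, with a separate scale in each panel) of the 8 GIMAP genes in chromosome order. Each symbol is a line, its shape gives the line letter and the bar is the mean of 3 lines; EV lines of mouse 1 had the lowest mean in every panel, and Gimap4 in EV lines of either mouse stayed below 1.1 CPM.

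Gimap4, a member known from T cells as a factor in cell death, was at its lowest in EV lines. It measured 0.0753, 0.130 and 0.0614 CPM in EV lines 1A, 1B and 1C (4, 9 and 4 reads) and 0.613, 0.377 and 1.06 CPM in EV lines 2A, 2B and 2C. With BCR-ABL1 it measured 27.1, 45.5 and 37.9 CPM in mouse 1, and 24.2, 23.5 and 21.2 CPM in mouse 2. No line of either condition came near the range of the other. The mean CPM was 77.3-fold higher in BCR-ABL1 lines, with a log2 fold change of 6.30 ± 0.61 (n = 6 and 6 lines, FDR = 7.83e-05 by glmTreat). Gimap4 was called in each mouse alone, with a log2 fold change of 8.63 ± 0.32 in mouse 1 (FDR = 3.15e-07) and 5.06 ± 0.41 in mouse 2 (FDR = 0.00174). With 4 to 9 reads in EV lines of mouse 1, the fold in that mouse rests on few counts.

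Gimap3 was detected in EV lines at 1.02, 1.17 and 0.983 CPM in mouse 1 and at 3.89, 10.3 and 6.44 CPM in mouse 2. BCR-ABL1 lines held 32.8, 40.0 and 44.4 CPM in mouse 1 and 12.1, 14.3 and 14.0 CPM in mouse 2. Within each mouse all BCR-ABL1 lines were above all EV lines, but EV line 2B, at 10.3 CPM, lay close under BCR-ABL1 line 2A, at 12.1 CPM. The log2 fold change over all lines was 2.73 ± 0.69 (FDR = 0.0223), and it stayed called when any single line was left out (FDR 0.00732 to 0.0456). It was no longer called without the gene filter (FDR = 0.0723), nor with each pair of lines of the same mouse and letter as a block (FDR = 0.0978). Gimap3 and its relative Gimap5 share a run of 140 identical transcript bases, and 7.52% and 4.53% of their windows of 50 bases are common to both. No other pair of members shared an identical run of more than 17 bases. How reads from that run were counted is not given in the sources used here, so their values are uncertain to that extent.

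Gimap8, the member with several GTP-binding domains in a single protein, measured 9.17, 8.63 and 9.49 CPM in EV lines of mouse 1 and 52.1, 83.6 and 32.3 CPM in EV lines of mouse 2. In BCR-ABL1 lines it measured 61.9, 81.4 and 80.0 CPM in mouse 1 and 53.6, 60.4 and 58.2 CPM in mouse 2. EV line 2B had more Gimap8 RNA than any BCR-ABL1 line, so the conditions overlapped, and the log2 fold change of 1.02 ± 0.60 over all lines did not pass the test (FDR = 0.485). With mouse as a block it was 1.52 (FDR = 0.152).

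Gimap7, whose GTPase activity is known to depend on dimerization, measured 3.12, 2.58 and 3.19 CPM in EV lines of mouse 1, 5.37, 5.28 and 3.28 CPM in EV lines of mouse 2, and with BCR-ABL1 10.3, 13.9 and 12.2 CPM in mouse 1, but 4.70, 5.66 and 4.94 CPM in mouse 2. The lines of mouse 1 separated and those of mouse 2 overlapped, and the log2 fold change over all lines was 1.18 ± 0.34 (FDR = 0.0906). Gimap1, which mature B and T cells need to survive, measured 46.5, 43.7 and 46.1 CPM in EV lines of mouse 1 and 70.0, 76.2 and 66.6 CPM in EV lines of mouse 2. With BCR-ABL1 it reached 102, 110 and 105 CPM in mouse 1, and 83.9, 83.8 and 82.1 CPM in mouse 2. All BCR-ABL1 lines were above all EV lines, with a log2 fold change of 0.70 ± 0.17 that did not pass the test against 1.5-fold (FDR = 0.370). Tested against no change, Gimap1 and Gimap7 passed (FDR = 0.00336 and 0.00988), which made 4 of 8 members higher. By that test 3386 of all 15038 tested genes were higher.

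Gimap5, Gimap6 and Gimap9 had log2 fold changes near 0 over all lines: 0.29 ± 0.21, 0.12 ± 0.28 and -0.03 ± 0.23 (FDR = 1 for each). Gimap5 measured 14.1, 14.3 and 14.5 CPM in EV lines of mouse 1, 22.5, 28.9 and 23.9 CPM in EV lines of mouse 2, and with BCR-ABL1 27.3 to 27.9 CPM in mouse 1 but 19.97 to 21.2 CPM in mouse 2. All its BCR-ABL1 lines thus lay above the EV lines in mouse 1 and below them in mouse 2. Gimap6, which binds the autophagy protein GABARAPL2, measured 68.3, 61.7 and 68.5 CPM and 159.6, 188 and 89.9 CPM in EV lines of mouse 1 and mouse 2, and 105 to 114 CPM and 117 to 128 CPM in the BCR-ABL1 lines. Gimap9 measured 71.9, 69.6 and 80.0 CPM and 146, 153.7 and 78.0 CPM in the EV lines, and 106 to 114 CPM and 82.4 to 95.1 CPM in the BCR-ABL1 lines. For both genes EV line 2C lay well below EV lines 2A and 2B.

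The change from EV to BCR-ABL1 lines, which joins BCR-ABL1 with IL7 withdrawal and the sort of EV cells, differed between the mice. In the lines of mouse 1, 7 of 8 members were called higher with BCR-ABL1, where 15.7% of tested genes were, and all 8 separated the lines without overlap, as did 36.5% of tested genes. The log2 fold changes were 8.63 for Gimap4, 5.20 for Gimap3, 3.03 for Gimap8, 2.03 for Gimap7, 1.22 for Gimap1, 0.95 for Gimap5 and 0.73 for Gimap6. Gimap9, at 0.56, was not called (FDR = 0.821). In the lines of mouse 2 Gimap4 alone of the members was called higher, where 3.53% of tested genes were. There 3 members had all BCR-ABL1 lines above all EV lines, as did 22.3% of tested genes. The other values in mouse 2 lay between -0.51 for Gimap9 and 0.98 for Gimap3, and the median of the members was 1.63 in mouse 1 and 0.10 in mouse 2.

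**Figure D2:**
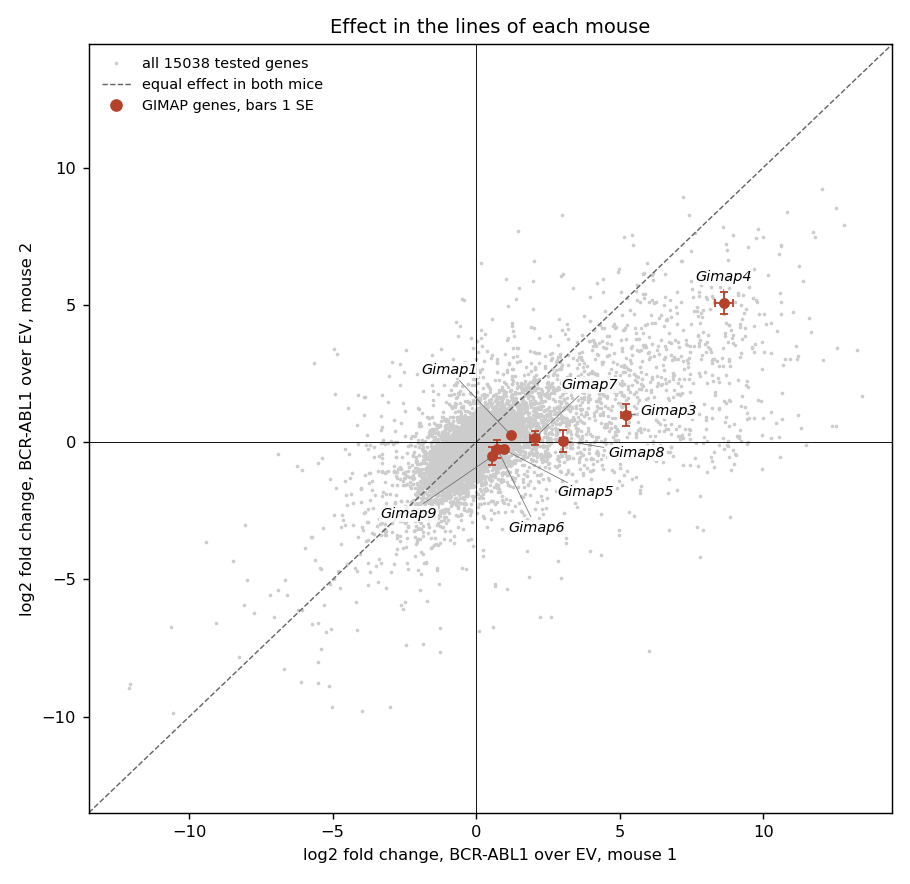
Log2 fold change of BCR-ABL1 over EV lines in mouse 1 (x axis) and mouse 2 (y axis) for all 15038 tested genes (grey) and the 8 GIMAP genes (red, bars are 1 SE, 3 lines per condition and mouse). All 8 GIMAP genes lie below the dashed line of equal effect.

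The difference itself was tested by an interaction term of mouse with condition (edgeR glmQLFTest). It was called in 8 of 8 members, each with the smaller log2 fold change in mouse 2, and in that direction in 10.7% of tested genes. The effect in mouse 2 minus that in mouse 1 was -4.24 ± 0.44 for Gimap3 (FDR = 4.27e-05), -3.59 ± 0.52 for Gimap4 (FDR = 9.17e-04) and -3.0 ± 0.42 for Gimap8 (FDR = 3.10e-04). It was -1.89 for Gimap7, -1.23 for Gimap5, -1.09 for Gimap9, -1.0 for Gimap6 and -0.99 for Gimap1, with FDRs between 5.98e-05 and 0.0345. The call for Gimap6 was kept in 2 of 12 fits that left out a line, those without EV line 2B (FDR = 0.0488) or 2C (FDR = 4.01e-06), and reached an FDR of 0.0852 without EV line 1B. That for Gimap9 was lost without EV lines 1B or 2A or BCR-ABL1 lines 1B, 2B or 2C (FDR 0.0538 to 0.0588).

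The interaction was called for genes on both strands and at both ends of the cluster. The highest changes in mouse 1 were those of Gimap4, in the inner part of the cluster, and of Gimap3, at its end, and Gimap9 and Gimap6 on either side of Gimap4 had the smallest changes.

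**Figure D3:**
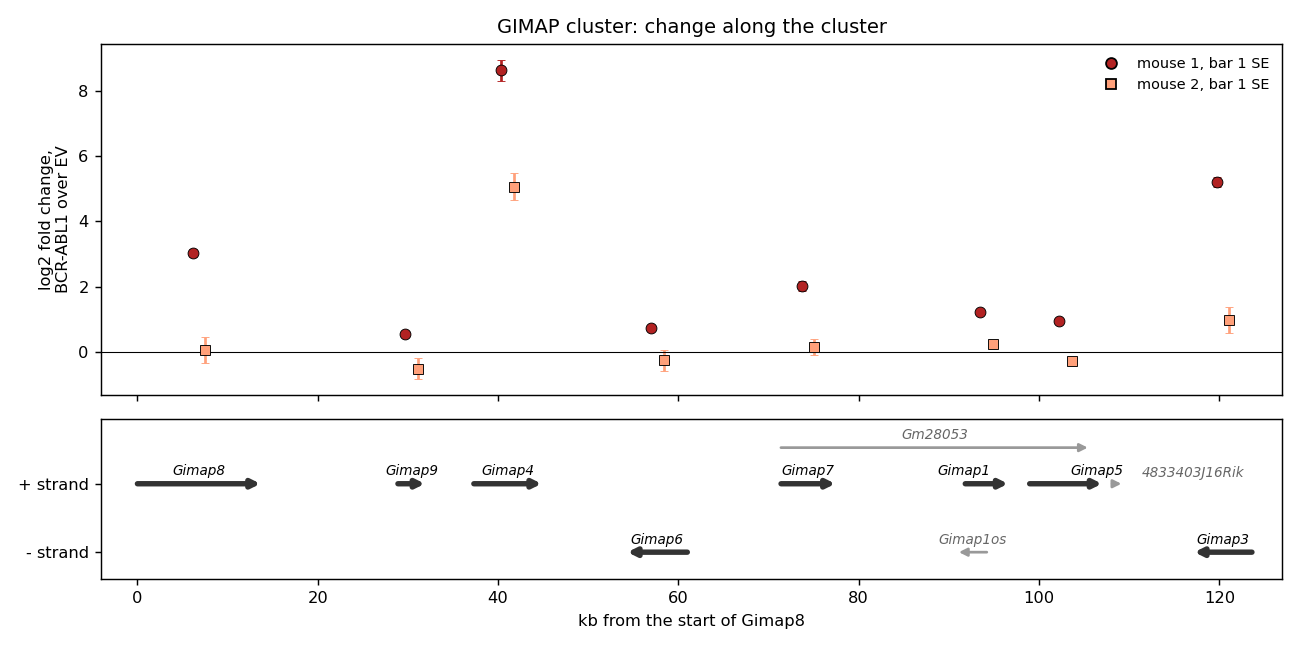
The GIMAP cluster in kb from the start of Gimap8. The upper panel gives the log2 fold change of BCR-ABL1 over EV lines in mouse 1 and mouse 2 (bars are 1 SE, 3 lines per condition), and the lower panel the genes with their strand, members in black and other tested genes in grey; Gimap4 stands 8.63 high in mouse 1 between Gimap9 (0.56) and Gimap6 (0.73).

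The mice were then compared within each condition. These comparisons use the same EV lines as the effects above and are therefore not independent of them. Gimap4, Gimap3, Gimap8, Gimap6 and Gimap5 were called higher in EV lines of mouse 2 than in those of mouse 1, with log2 differences of 2.91, 2.71, 2.62, 1.14 and 0.81 (5 of 8 members, where 8.19% of tested genes were called higher, FDR 1.38e-04 to 0.0426). Gimap9, Gimap1 and Gimap7 had log2 differences of 0.77, 0.64 and 0.64 that did not pass. In 7 of 8 members, Gimap9 excepted, every EV line of mouse 2 was above every EV line of mouse 1, as in 16.6% of tested genes. In the 12 fits that left out a line, the Gimap5 call was kept only without EV line 2A, EV line 2C or BCR-ABL1 line 2A. The Gimap6 call was lost without any of the EV lines 1A, 1B, 1C, 2A or 2B (FDR 0.0639 to 0.115), and Gimap9 was called without EV line 2C (FDR = 2.37e-04).

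Among BCR-ABL1 lines 2 of 8 members differed between the mice. Gimap3 and Gimap7 were called lower in mouse 2 than in mouse 1, with log2 differences of -1.54 ± 0.15 (FDR = 0.0342) and -1.25 ± 0.15 (FDR = 0.0388), where 1.14% of tested genes were called lower. All members but Gimap6 had every BCR-ABL1 line of mouse 2 below every such line of mouse 1, as in 18.7% of tested genes.

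Levels were compared between members as FPKM, here CPM per kb of exon. In EV lines of mouse 1 the order was Gimap9 (45.0 ± 3.3 FPKM, SD, n = 3), Gimap6 (18.9 ± 1.1), Gimap1 (14.8 ± 0.49), Gimap5 (3.45 ± 0.050), Gimap8 (2.46 ± 0.12), Gimap7 (1.28 ± 0.14), Gimap3 (0.410 ± 0.039) and Gimap4 (0.0484 ± 0.020), and no neighbours in that order overlapped. The order depends on the length used, and over the longest transcript in place of all exons Gimap1 (28.1 FPKM) stood above Gimap6 (20.8 FPKM) in these lines. In BCR-ABL1 lines of mouse 1 Gimap9 was again first (66.4 ± 2.4 FPKM), followed by Gimap1 (34.4 ± 1.3), Gimap6 (31.4 ± 1.2), Gimap8 (20.1 ± 2.9), Gimap4 (20.1 ± 5.0), Gimap3 (15.2 ± 2.3), Gimap5 (6.66 ± 0.079) and Gimap7 (5.22 ± 0.77). There the lines of Gimap8 and Gimap4, and those of Gimap4 and Gimap3, overlapped. Gimap4 thus stood last in EV lines of either mouse and between Gimap8 and Gimap3 in BCR-ABL1 lines of either mouse. In mouse 2 Gimap9 overlapped Gimap6, Gimap1 overlapped Gimap8 and Gimap3 overlapped Gimap7 in the EV lines (76.7, 41.8, 23.1, 15.1, 2.67 and 2.00 FPKM for the 6 genes named), and only Gimap3 and Gimap5 overlapped in the BCR-ABL1 lines (5.22 and 4.99 FPKM).

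The summed level of the 8 members was 81.7 to 91.2 FPKM in EV lines of mouse 1, 114 to 208 FPKM in EV lines of mouse 2, and with BCR-ABL1 184 to 212 FPKM in mouse 1 against 152 to 161 FPKM in mouse 2. The conditions overlapped in this sum, since EV lines 2A and 2B held 181 and 208 FPKM. The make-up differed more clearly than the sum. Gimap9 supplied 41.7% to 53.5% of the sum in every EV line and 32.1% to 35.9% in every BCR-ABL1 line, and Gimap4 supplied at most 0.51% in EV lines and at least 7.62% in BCR-ABL1 lines. Gimap3 supplied 0.42% to 2.19% in EV lines and 2.92% to 8.51% in BCR-ABL1 lines. Each share depends on the levels of the other members. Gimap9 itself overlapped between the conditions, with a log2 fold change of -0.03 over all lines. In mouse 1 its mean share was 52.1% in EV and 33.4% in BCR-ABL1 lines, while its log2 fold change was 0.56.

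**Figure D4:**
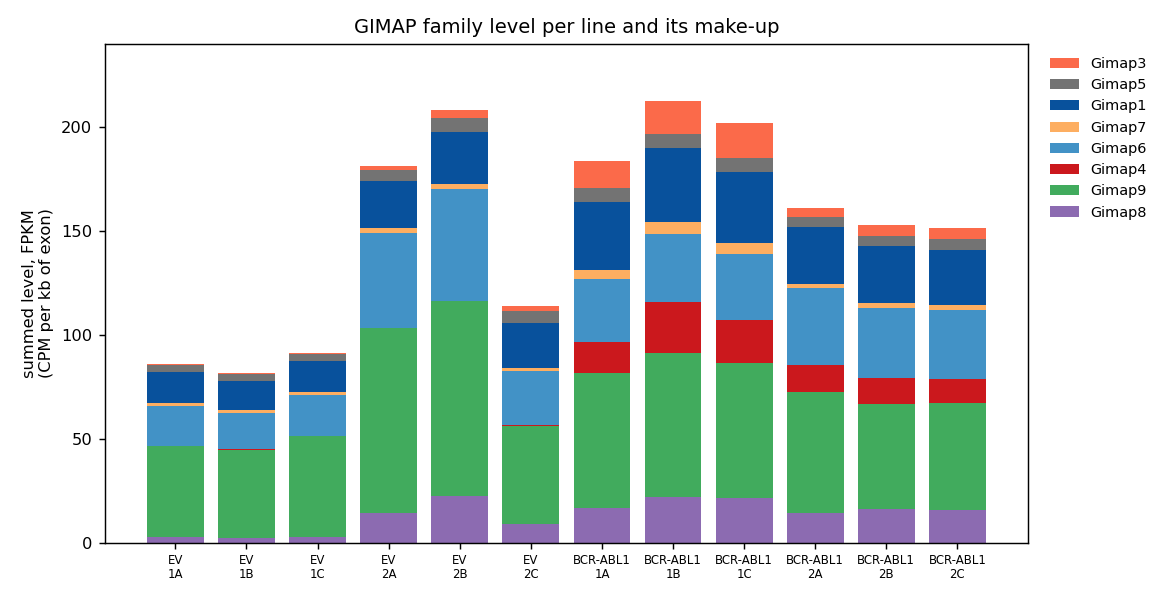
Summed level of the GIMAP genes in each line in FPKM, stacked by member. Gimap4 (dark red) is hardly visible in EV lines and supplies 7.62% to 11.7% of the sum in BCR-ABL1 lines, and the sums of EV lines 2A and 2B reach into the range of the BCR-ABL1 lines.

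Within the cluster 3 other genes were tested. Gimap1os, an RNA antisense to Gimap1, was called higher in BCR-ABL1 lines with a log2 fold change of 2.96 ± 0.52 (FDR = 0.00323) and measured 0.282 to 1.93 CPM with EV and 4.35 to 9.70 CPM with BCR-ABL1. It covers 36.0% of the exon bases of Gimap1 on the opposite strand. The libraries were stranded, but the strand setting of the counting is not given in the sources used here, so reads of the pair may not be separated. The read-through gene Gm28053, which shares 3.48%, 6.44% and 3.69% of the exon bases of Gimap7, Gimap1 and Gimap5, stood at 0.635 to 2.05 CPM and was not called (0.75 ± 0.18, FDR = 0.335), and the long non-coding RNA 4833403J16Rik was not called either (0.48 ± 0.26, FDR = 0.991).

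Outside the cluster, 13 of 47 annotated genes within 500 kb were tested. Over all 12 lines Igf2bp3 alone, an RNA-binding protein gene 314.4 kb away, was called (log2 fold change 5.94 ± 0.78, FDR = 0.00126). It was higher in BCR-ABL1 lines, with at most 0.429 CPM in EV lines. With 5.98% of all tested genes called higher, 1 of 13 is near the background. In mouse 1 alone 6 of the 13 were called higher, where 15.7% of tested genes were. In mouse 2 alone 1 was, where 3.53% of tested genes were. The median of the 13 over all lines was 0.46. The nearest tested genes, Zfp775 at 24 kb before and Tmem176b at 63.0 kb after the cluster, had log2 fold changes of 0.37 ± 0.12 (FDR = 1) and 2.67 ± 0.96 (FDR = 0.119). The interaction of mouse and condition was called in 4 of the 13 genes, where 10.7% of tested genes were called in the same direction. These were Lrrc61, Repin1, Tmem176b and Tmem176a, named after their values were seen, all within 76.5 kb of the cluster. Their effects in mouse 2 minus mouse 1 were -3.30, -5.96, -7.00 and -6.12. In EV lines of mouse 1 they measured at most 0.921, 0.650, 0.0433 and 0.0376 CPM, and in EV lines of mouse 2 at least 4.89, 16.5, 0.457 and 0.258 CPM. Tmem176b and Tmem176a were near 0 in EV lines of mouse 1, so the size of their fitted differences depends on the prior count. Zfp775, which lies between the cluster and Repin1, measured 7.09 to 8.92 CPM and 9.32 to 11.4 CPM in these lines and did not pass the interaction test (-0.43, FDR = 0.163).

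GIMAP proteins are known to bind or to act with proteins of the BCL2 family, of the GABARAP family and with GSK3B. Of 11 tested genes of these kinds, Bcl2l11, the pro-apoptotic BIM, was called higher with a log2 fold change of 1.10 ± 0.18 (FDR = 0.0145), and 0 were lower, also at an unadjusted p under 0.05 and by DESeq2. With 5.98% of all tested genes called higher, 1 of 11 is near the background. Its level was 30.7 to 44.6 CPM with EV and 53.1 to 97.4 CPM with BCR-ABL1. Gabarapl2, the partner of Gimap6, had a log2 fold change of -0.18 ± 0.14, and Gsk3b, linked to Gimap5 in T cells, had -0.19 ± 0.11 (FDR = 1 for both). Of 13 tested genes of lymphocyte quiescence and homing, 3 passed the test upward with BCR-ABL1 and 2 downward, where 5.98% and 6.46% of all tested genes did. Among the former were Slfn2 (6.30 ± 0.85, FDR = 3.18e-04), which maintains quiescence in T cells, and S1pr1 (3.51 ± 0.89, FDR = 0.0166), the receptor for exit from lymphoid tissue. Btg1 (-1.82 ± 0.12, FDR = 1e-05), an anti-proliferative gene, and Il7r (-1.06 ± 0.13, FDR = 0.00340), the IL7 receptor chain, were lower.

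Of 12 tested B lineage genes, Dntt (4.30 ± 1.25, FDR = 0.0407), the template-independent polymerase of V(D)J joining, was called higher and Cd22 (-1.36 ± 0.34, FDR = 0.0356), an inhibitory receptor, lower. Of 7 tested T and NK genes, Cd2 (3.23 ± 0.60, FDR = 0.0110), an adhesion receptor, was called higher and Cd3d (-2.67 ± 0.28, FDR = 5.34e-04), which did not exceed 0.644 CPM in any line, lower. None of the 12 myeloid or 7 mast cell and basophil markers passed the filter, and these lists summed to at most 1.93 and 0.583 CPM in any line. Among dendritic cell, erythroid and megakaryocyte, and endothelial and stromal markers, 2, 3 and 1 genes were tested, of which 4 were called. For all of these lists the shares to compare with are again 5.98% and 6.46%. Flt3 (3.61 ± 0.32), a growth factor receptor of progenitors and dendritic cells, and Hbb-bt (1.72 ± 0.40), a beta-globin, were higher, and Zbtb46 (-1.91 ± 0.33), a transcription factor of dendritic cells, and Itga2b (-0.99 ± 0.15), a platelet integrin, were lower (FDR 2.85e-05 to 0.0479). The endothelial gene tested, Pecam1, was not called (-0.11 ± 0.32, FDR = 1).

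A different group of immune GTPases, the interferon-inducible GBP, IRG and Mx genes, had estimates above 0 in all 19 tested members and a median log2 fold change of 2.34. Of these 19 members, 14 were called higher (13 by DESeq2) and 0 lower, where 5.98% and 6.46% of all tested genes were. Those with the lowest FDR were Gbp3 (3.89 ± 0.26, FDR = 4.53e-06), Gbp7 (5.33 ± 0.37, FDR = 6.53e-06), Gbp2 (5.10 ± 0.53, FDR = 1.02e-04) and Tgtp1 (5.89 ± 0.42, FDR = 1.35e-04). Tgtp1 was at 0 in part of the EV lines and has a near-identical copy, Tgtp2, so its value is uncertain. The interaction of mouse and condition was called in 17 of the 19, all with the smaller effect in mouse 2, as in 10.7% of tested genes. Whether the 2 groups of GTPases differed in their change was not tested.

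For each member with a mean of at least 1 CPM, the 3 tested genes outside the cluster with the most alike profile were found by the root mean square difference of log2 CPM over the 12 lines, each gene centred on its own mean. These were Slc17a8, Csf2rb2 and Gm266 for Gimap4 (differences of 0.565 to 0.692, where the profile of Gimap4 itself varied by 3.46 around its mean). They were Zfp523, Gaa and Rgl1 for Gimap3 (0.520 to 0.574, against 1.90) and Cyfip1, Rtl5 and Slamf6 for Gimap8 (0.240 to 0.280, against 1.23). For Gimap7 they were Gbp4, Gm43321 and Slc25a45 (0.231 to 0.291, against 0.760), and for Gimap1 they were Ostf1, Psmb8 and Rasgrp2 (0.096 to 0.117, against 0.447). Gimap5 was most like Hist1h2ae, Chchd10 and Itpr1 (0.134 to 0.143), Gimap6 most like Mgst3, Oxr1 and Gm12454 (0.130 to 0.153) and Gimap9 most like Akr1b10, Sdhaf2 and Cyth1 (0.124 to 0.143). These 3 members varied by only 0.371, 0.468 and 0.361. Slc17a8, for example, averaged 0.0911 and 0.839 CPM in EV lines of mouse 1 and mouse 2 and 26.2 and 33.0 CPM in the BCR-ABL1 lines. Between members, Gimap1 and Gimap5 (0.213) and Gimap6 and Gimap9 (0.241) were the closest of 28 pairs, and Gimap4 and Gimap9 (3.41) the farthest apart.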

How the data were processed

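RNA of 12 lines (TruSeq stranded total RNA, 150 bp paired reads) was counted per gene by the authors, who deposited whole-number counts, without normalization or pooling. The submitters' processing notes name FastQC 0.11.5, Trimmomatic 0.36, TopHat2 2.1.1, Bowtie2 2.3.2, featureCounts 1.5.3, R 3.6.1, edgeR 3.18.1 and GRCm38. The annotation release and strand setting are not given in the sources used here. Groups were taken from the sample titles, with the digit in them read as the mouse, and culture from the paper's methods.

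Symbols, positions and exon lengths were taken from GENCODE M21, which named 51633 of 51826 identifiers. Counts were filtered with filterByExpr, scaled by TMM and tested in R 4.3.3 with edgeR 4.0.16 (robust glmQLFit, glmTreat against 1.5-fold, Benjamini-Hochberg adjustment over 15038 genes). The paper names glmTreat with a likelihood ratio fit, which was run as an alternative. The effect in each mouse was fitted on its own 6 lines, and mouse differences within a condition on all 12. Log2 CPM used a prior count of 2, and SE are from its spread between lines. Fold changes are from the edgeR fits, so for genes with few reads the SE may be too small. DESeq2 1.42.0 was an alternative. Figures were drawn with matplotlib 3.10.9. The fits were tested on simulated counts.

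The first digit of a line's name was read as the mouse, which the sample titles do not state. This reading pairs EV with BCR-ABL1 lines, and every comparison by mouse rests on it. Across conditions, the lines' deviations from the mean of their condition had r of 0.0853 to 0.240 within a mouse and of -0.203 to -0.0636 between mice. Deviations within a condition cancel out, so positive r within a mouse brings negative r between mice, and these ranges are not separate evidence. They cannot tell the mouse from another batch shared by the digit. Replicate lines differed by more than sampling noise (chi-square per gene 9.96 to 481).

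All 8 members are named. Of the genes within 500 kb, the nearest tested and every called gene are named, and of each list up to 4 called genes with the lowest FDR. Some genes of the lists are not reported here. The members and lists were chosen with earlier results of these data known.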

Additional observations from a re-analysis of the deposited data

Results flagged for a closer look

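The change from EV to BCR-ABL1 lines, which joins BCR-ABL1 with IL7 withdrawal and the sort of EV cells, differed between the mice in all 8 GIMAP genes. This was called by the interaction test of edgeR over 12 lines, which is what marks them for a closer look. The log2 effect in mouse 2 minus that in mouse 1 was -4.24 for Gimap3, -3.59 for Gimap4, -3.0 for Gimap8, -1.89 for Gimap7, -1.23 for Gimap5, -1.09 for Gimap9, -1.0 for Gimap6 and -0.99 for Gimap1. For Gimap4 the effect was positive and called in both mice, so the difference is one of size. For Gimap5, Gimap6 and Gimap9 the estimate was positive in mouse 1 (0.95, 0.73 and 0.56) and negative in mouse 2 (-0.26, -0.25 and -0.51), where none of these was called. With 2 mice, a difference between mice and a difference between their cultures cannot be told apart. None of the 16 groups of 6 lines (8 genes in 2 conditions) held a line far enough from the others to pass Dixon's test, which flags about 1 in 20 groups by chance. Each of these groups joins the lines of both mice, so a line that stands apart only from the other lines of its own mouse, as EV line 2C did for Gimap6 and Gimap9, cannot be found in this way, and groups of 3 lines were not tested.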

How the results depend on the processing

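Gimap4 was called higher in all 21 alternatives that kept both mice and Gimap3 in 19 of 21, where the exceptions are given in the report. Members called higher numbered 4 when tested against no change, 1 without a gene filter, 7 in mouse 1 alone and 1 in mouse 2 alone. Genes called higher and lower over the whole table numbered 3386 and 3901 against no change, 2368 and 1682 in mouse 1 alone and 531 and 351 in mouse 2 alone, compared with 899 and 971 over all lines, and with a CPM of at least 1 in 6 lines 598 were higher. With mouse as replicate block 2 members were higher, the same 2, and no call of a member changed. With the pair of lines of the same mouse and letter as replicate block 1 member was higher; after removal of mouse means, lines of the same letter correlated between -0.109 and 0.0856, and whether a letter marks one of the independent experiments named in the study's methods is not given in the sources used here.

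Leaving out each line in turn gave 2 to 2 members higher and 0 to 0 lower, 6 to 8 members that differed in effect between the mice (6 without EV lines 1B or 2A or BCR-ABL1 lines 1B, 2B or 2C), 3 to 6 that differed between the mice in EV lines (6 without EV line 2C), and 802 to 1348 genes higher and 798 to 1433 lower over the whole table; the highest counts over the whole table were those without EV line 2C. Tested against no change, 8 members differed between the mice in EV lines. The share of all tested genes under that looser test is not given here, so this count has no background beside it. The sign of Gimap9, never called, turned from -0.03 to 0.00 with DESeq2 and with its size factors, 0.04 without a gene filter, 0.02 with mouse as replicate block by either fit, 0.05 with the pair of lines as replicate block, 0.56 in mouse 1 alone, and, over the fits that left out a line, lay between -0.11 (without EV line 1B) and 0.13 (without EV line 2B), with 0.10 without EV line 2A and 0.02 without BCR-ABL1 line 2B or 2C. In mouse 2 alone Gimap5 turned to -0.26 and Gimap6 to -0.25. Over the longest transcript in place of all exons, levels per length of Gimap1, Gimap5 and Gimap7 moved most, in EV lines of mouse 1 to 28.1, 6.14 and 2.34 FPKM. The cause of these changes was not tested.

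Depth limits Gimap4 in EV lines of mouse 1, with 4 to 9 reads per line, and the values of all members cover lines of 2 mice only.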
